A study of Mus musculus with 6 samples.

Results

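Bone morphogenetic protein (BMP), growth and differentiation factor (GDF) and activin ligands, together with the proteins that bind or restrain them, were examined in sorted spinal cord cells of the mouse NG2 lineage. The set was a list of 40 mouse genes taken by symbol, drawn up with earlier results of these data known but with no rule on their values, and 39 of them were matched to 1 row each among the 38293 Ensembl genes of the count table. The data were 6 bulk RNA-seq libraries, 3 labelled Control and 3 labelled EAE, for experimental autoimmune encephalomyelitis, an induced autoimmune disease of central nervous system myelin. All donors were female NG2-CreERTM:Rosa-tdTomato/+:Cx3cr1GFP/+ mice, so the Control animals carried the same 3 alleles as the EAE animals. Live cells positive for tdTomato were sorted from whole cords in the presence of actinomycin D, an inhibitor of transcription. An inducible Cre driven by the NG2 proteoglycan promoter turns the reporter on. That promoter is known to work in oligodendrocyte precursors as well as in vascular mural cells (pericytes, smooth muscle), and their progeny keep the mark. The sources used here do not give age, the way EAE was induced, what Control mice received, the time of collection or the number of animals per library, and p-values here reflect only how these 3 libraries per group vary, part of which may be technical.

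BMP, GDF and activin ligands are secreted dimers that bring type I and type II receptor kinases together at the cell surface. The receptors then phosphorylate Smad transcription factors, Smad1, Smad5 and Smad9 for BMPs and Smad2 and Smad3 for activins and nodal, which switch on targets such as the Id genes. Antagonists such as noggin, chordin, gremlin and the DAN family bind BMPs outside the cell and keep them from the receptors, and follistatins do so for activins. In the oligodendrocyte lineage, BMP signalling is known to hold precursors back from maturing and to favour an astrocyte fate, and noggin relieves this block. In vessels, BMP and endoglin signalling is known for its part in the maturation of endothelium.

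Start regions are shown for the 3 members that passed the test and for Bmp4, the ligand with most reads, since these are the genes on which the results turn. Each is a RefSeq window on GRCm38.p6 from 250 bases before to 50 bases after the transcript start, written 5′ to 3′ on the strand of the gene: Nbl1 at chr4:139092921-139093220 on the minus strand, Bmp5 at chr9:75775115-75775414 on the plus strand, Bmp6 at chr13:38345466-38345765 on the plus strand and Bmp4 at chr14:46390620-46390919 on the minus strand. Capitals mark the GC-rich element GGCGCC, to which Smad1 and Smad5 are known to bind, and the Smad3 and Smad4 box CAGAC or its reverse complement GTCTG, searched on both strands, with no overlap between matches.
Nbl1: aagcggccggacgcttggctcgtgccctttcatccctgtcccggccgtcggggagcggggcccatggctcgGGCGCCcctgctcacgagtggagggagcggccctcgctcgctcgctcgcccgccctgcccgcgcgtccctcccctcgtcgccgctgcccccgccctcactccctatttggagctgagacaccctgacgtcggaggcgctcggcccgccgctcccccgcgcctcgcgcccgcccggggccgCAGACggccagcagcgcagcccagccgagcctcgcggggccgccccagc
Bmp5: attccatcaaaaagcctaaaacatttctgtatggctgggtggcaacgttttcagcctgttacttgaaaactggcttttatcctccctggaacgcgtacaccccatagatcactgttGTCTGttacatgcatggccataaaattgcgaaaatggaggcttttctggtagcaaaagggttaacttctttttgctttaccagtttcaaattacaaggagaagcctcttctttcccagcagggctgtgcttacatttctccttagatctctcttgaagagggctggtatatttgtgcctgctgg
Bmp6: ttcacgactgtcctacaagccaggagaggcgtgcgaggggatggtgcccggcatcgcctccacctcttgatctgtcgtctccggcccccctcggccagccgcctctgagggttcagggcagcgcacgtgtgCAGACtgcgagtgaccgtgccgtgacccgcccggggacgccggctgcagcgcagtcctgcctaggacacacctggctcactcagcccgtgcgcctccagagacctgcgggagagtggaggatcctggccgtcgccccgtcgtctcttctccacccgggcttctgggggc
Bmp4: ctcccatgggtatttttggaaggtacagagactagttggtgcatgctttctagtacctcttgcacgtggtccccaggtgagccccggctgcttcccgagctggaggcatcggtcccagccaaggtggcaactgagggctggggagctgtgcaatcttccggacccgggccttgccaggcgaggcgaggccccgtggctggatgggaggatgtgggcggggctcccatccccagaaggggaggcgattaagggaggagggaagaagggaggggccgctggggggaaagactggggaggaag
The Nbl1 window held 1 GGCGCC and 1 CAGAC and was the most GC-rich of the 4, at 78.3%. The Bmp5 window, at 43.3% GC, and the Bmp6 window, at 69.3%, held 1 box each and no GGCGCC. The Bmp4 window, at 64.0% GC, held neither. Across all 32851 RefSeq start windows, 11.9% held GGCGCC and 49.6% held the box. Windows were found for 26 of the 40 members, and 6 of their 30 windows held GGCGCC and 18 the box. These matches describe letters in a window, not binding. In the gene annotation used here Bmp6 starts at 38345107, so its whole RefSeq window lies downstream of that start.

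Total reads per library ran from 22141522 to 28734798, and 16966 genes passed the filter on low counts. The first principal component separated the groups, with EAE replicate 3 at 100.2 against 44.1 and 38.3 for the other EAE libraries, and the second set Control replicate 3, at -80.5, apart from the other Control libraries, at 48.2 and 46.4. Markers of mature oligodendrocytes summed to 25980 to 30850 CPM (read counts relative to library size, with trimmed-mean-of-M-values scaling) in Control and to 21500 to 38970 CPM in EAE. Precursor markers summed to 2561 to 3695 CPM and 3748 to 4404 CPM, pericyte and smooth muscle markers to 3702 to 6426 and 579 to 985 CPM, and endothelial markers to 1989 to 2945 and 526 to 594 CPM. Endothelial genes were therefore present in a sort aimed at NG2 lineage cells. Microglia and macrophage markers summed to 16.5 to 21.2 CPM in Control and to 114, 20.4 and 294.5 CPM in EAE replicates 1, 2 and 3. T cell markers stayed under 1 CPM in Control and reached 12.9 CPM in EAE replicate 3, and fibroblast markers summed to 23.1 to 59.0 and 8.61 to 25.6 CPM.

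Of the 40 genes, 21 passed the filter and were tested. By the edgeR quasi-likelihood test with Benjamini-Hochberg adjustment over all tested genes, 3 of them were lower in EAE at an adjusted p under 0.05, namely the BMP antagonist Nbl1 and the ligands Bmp5 and Bmp6, where 4.33% of all tested genes were called lower and 7.14% in either direction. None was called higher, against 2.82% of all tested genes. Bmp6 entered the test only through its Control reads, so its place among the 3 is no independent support. Its call was lost in each of the 6 fits that left out 1 library. Bmp4, Gdf11 and Inhba were the 3 members with a higher value and an unadjusted p under 0.05, and DESeq2 called 1 member higher, limma-voom 0. The median log2 fold change of the tested members was -0.35 and that of all tested genes 0.004. Of the rest, 12 genes had reads but did not pass the filter, among them Inha with 109 of its 146 reads in EAE replicate 2. Another 6 had no read in any library (Bmp3, Bmp10, Gdf2, Gdf6, Fst and Sost), and Gdf1 was matched by no identifier and is not analysed here. A gene at 0 reads is compatible with up to 3 reads, or 0.0997 to 0.139 CPM across the libraries, and this limit covers counting error only.

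**Figure D1:**
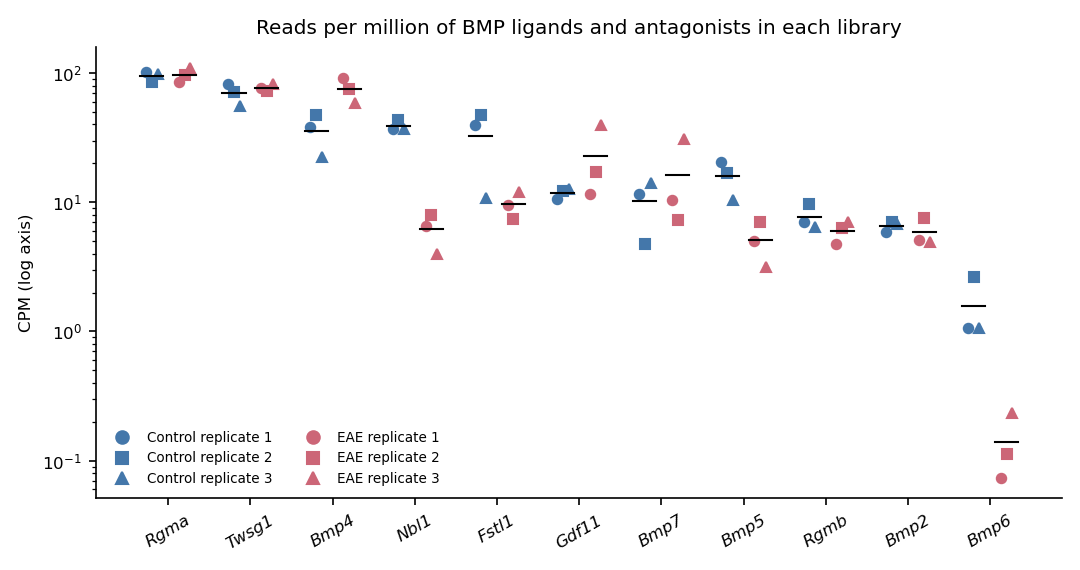
CPM on a log axis of the tested members with a mean of at least 5 CPM, plus Bmp6, in each Control (blue) and EAE (red) library, with black lines at the group means and marker shapes for the replicate number. Nbl1, Bmp5 and Bmp6 lay lower in all 3 EAE libraries than in any Control library and Bmp4 lay higher, while Rgma and Twsg1 overlapped.

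Among BMP ligands, 6 of 9 were tested. Bmp4 (ENSMUSG00000021835, chromosome 14, 46383520 to 46390669 on GRCm38/mm10), a ligand of the BMP2 and BMP4 group that is also a known marker of differentiating oligodendrocyte precursors, was at 37.9, 47.0 and 22.5 CPM in the Control libraries and at 91.3, 75.7 and 58.1 CPM in the EAE libraries, here and throughout in the order of replicates 1, 2 and 3. Every EAE library lay above every Control library, as did 13.4% of all tested genes. The fold was 2.10 (log2 fold change 1.07 ± 0.28, SE here and throughout, 95% interval of the fold 1.35 to 3.26), and it did not pass the test over all genes (adjusted p = 0.0569). Bmp4 was called in 6 of 16 alternatives: DESeq2 (adjusted p = 0.00374), no filter on low counts (0.0316), at least 1 CPM in 3 libraries (0.0495), the replicate block (0.0334), without EAE replicate 3 (0.0330) and, chosen after seeing the data, with replicate 3 of both groups left out (0.0106). It was not called in the other 10, among them limma-voom (0.0536) and the fit without EAE replicate 1 (0.170). Of its exonic bases 4.0% overlap the antisense gene Gm15217, which had 43 reads in all.

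Bmp5, a ligand of the BMP5, BMP6 and BMP7 group (ENSMUSG00000032179, chromosome 9, 75775364 to 75900310), was at 20.5, 16.9 and 10.3 CPM in Control and 5.05, 6.97 and 3.16 CPM in EAE. The EAE libraries were all below the Control libraries, as were those of 13.4% of all tested genes. Bmp5 fell 3.15-fold (log2 fold change -1.65 ± 0.38, adjusted p = 0.0350). Leaving out Control replicate 1, Control replicate 2, EAE replicate 1 or EAE replicate 3 ended the call (adjusted p up to 0.144). Its value is uncertain, because 46.7% of its exonic bases lie in the antisense gene Gm26903, which had 802 reads in Control and 318 in EAE, and reads of overlapping genes cannot be told apart where the strand setting is not given.

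Bmp6, a ligand of the same group that endothelial cells of several organs are known to secrete (ENSMUSG00000039004, chromosome 13, 38345107 to 38500302), had 26, 65 and 23 reads in the Control libraries, in replicate order, and 2, 3 and 7 in the EAE libraries. In CPM these were 1.07, 2.62 and 1.06 against 0.0737, 0.112 and 0.233. The groups did not overlap, and the fitted value was 10.9-fold lower (log2 fold change -3.45 ± 0.84, adjusted p = 0.0428). The 95% interval of its fitted fold, EAE over Control, was 0.024 to 0.34. With reads pooled over the libraries and scaled for depth, the ratio of its 114 Control to 12 EAE reads was 11.3. The exact 95% interval of that ratio, 6.22 to 22.5, covers counting error only and leaves out the spread between libraries. Bmp6 passed the filter on low counts only through the Control libraries, and its call was lost in each of the 6 fits that left out 1 library (adjusted p up to 0.187), with no filter on low counts (0.0755), with limma-voom (0.116), with the replicate block (0.115) and with library sizes alone (0.0521). The antisense gene Txndc5 overlaps 5.7% of its exonic bases.

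Bmp7, of the same group, was at 11.6, 4.71 and 14.1 CPM in Control and 10.5, 7.34 and 30.9 CPM in EAE. The groups overlapped, the highest value being that of EAE replicate 3 (log2 fold change 0.68 ± 0.57, adjusted p = 0.590), and without that library the log2 fold change was -0.18. Bmp2, the closest relative of Bmp4, was at 5.88, 7.08 and 6.76 CPM in Control and 5.08, 7.53 and 4.95 CPM in EAE. Its groups overlapped, and the 95% interval of its fold, 0.537 to 1.48, leaves room for changes in either direction (log2 fold change -0.17 ± 0.32, adjusted p = 0.839). Bmp8b had 15 to 33 reads per library (adjusted p = 0.781), and its near-identical neighbour Bmp8a had 2 reads in all, so single values of this pair are uncertain.

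Of 11 GDF ligands, 2 were tested. Gdf11, a relative of myostatin that signals through Smad2 and Smad3, was at 10.6, 12.2 and 12.7 CPM in Control and 11.7, 17.0 and 39.8 CPM in EAE. EAE replicate 3 was far above the rest and EAE replicate 1 within the Control range (log2 fold change 0.95 ± 0.42, adjusted p = 0.245), and without EAE replicate 3 the fold was 1.22 rather than 1.93. Gdf9, best known as an oocyte factor, had 21 to 76 reads per library and overlapping groups (adjusted p = 0.746). Myostatin (Mstn) had 6 reads in all, Gdf5 3, Gdf10 44, of which 40 were in Control replicates 1 and 2, and the stress-induced Gdf15 48. All 15 reads of Gdf3 were in EAE replicate 3 and 27 of the 28 reads of Gdf7 in Control replicate 1.

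Inhba encodes the chain that pairs into activin A. It was at 1.03, 1.09 and 1.30 CPM in Control and 1.22, 2.76 and 8.31 CPM in EAE, where replicate 1 lay inside the Control range and replicate 3 far above it. The fold was 3.60 (95% interval 1.17 to 11.02, adjusted p = 0.181), and 1.75 without EAE replicate 3. Inhbb, the chain of activin B, had 0 to 72 reads per library with no separation (adjusted p = 0.843), and Inha, the inhibin alpha chain that turns such dimers into activin antagonists, had 109 of its 146 reads in EAE replicate 2 and was not tested. Nodal, a ligand of embryonic patterning that uses activin receptors, had a mean just under 5 CPM and is named for its size, after its values were seen. It was at 14.4, 9.62 and 1.94 CPM in Control and 1.92, 1.53 and 0.332 CPM in EAE. Control replicate 3 thus lay only just above EAE replicate 1, and in RPKM, which is scaled by total reads alone, it lay below it (0.905 against 0.947). Nodal was 6.88-fold lower in EAE (log2 fold change -2.78 ± 0.81) and did not pass the test (adjusted p = 0.0817). It was called in 4 of 16 alternatives, among them DESeq2 (adjusted p = 0.00256). Of the 6 fits that left out 1 library it was called in 1, without Control replicate 3 (adjusted p = 0.0316). The adjusted p of these fits ran up to 0.258.

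**Figure D2:**
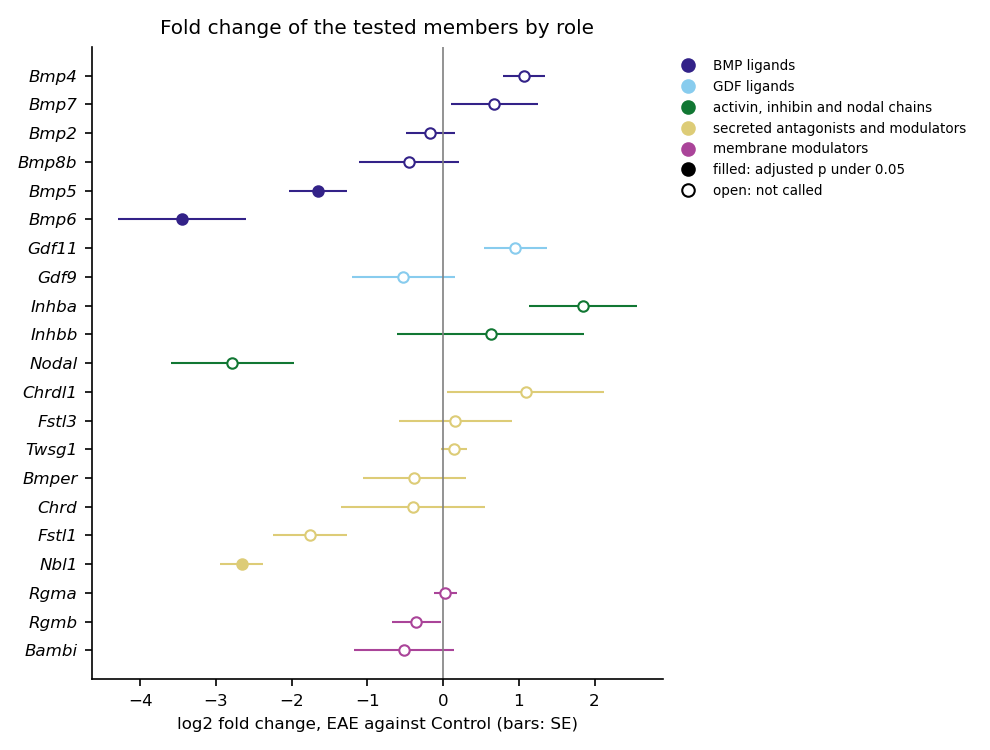
Log2 fold change of EAE against Control with its SE for the 21 tested members, coloured by role. Filled points mark an adjusted p under 0.05, reached by Nbl1, Bmp5 and Bmp6, all on the lower side. Bmp6 passed the filter on low counts only through the Control libraries.

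Among 13 secreted antagonists and modulators, 7 were tested. Nbl1 (also known as DAN, a cystine-knot protein that binds BMP and GDF ligands; ENSMUSG00000041120, chromosome 4, 139082284 to 139092993) was at 36.9, 43.1 and 36.7 CPM in Control and 6.595, 7.94 and 3.96 CPM in EAE. The 3 Control libraries were close together and every EAE library was far below them. Its mean was 38.9 ± 3.64 CPM in Control and 6.16 ± 2.03 CPM in EAE (SD, n = 3 each), and Nbl1 fell 6.32-fold (log2 fold change -2.66 ± 0.28, adjusted p = 0.00158 by edgeR). It was the 1 member called in each of the 6 fits that left out a library, with adjusted p from 0.00103 to 0.0128 and log2 fold changes from -2.88 to -2.41.

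Fstl1, a follistatin-like glycoprotein that can bind BMP4, was at 39.8, 47.3 and 10.8 CPM in Control and 9.51, 7.38 and 12.1 CPM in EAE. Control replicate 3 lay among the EAE libraries. The fold was 3.38 lower (log2 fold change -1.76 ± 0.48) and did not pass the test (adjusted p = 0.0676). Fstl1 was called in 3 of 16 alternatives. Of the 6 fits that left out 1 library it was called in 1, without Control replicate 3 (log2 fold change -2.17, adjusted p = 0.00454). Across these 6 fits the log2 fold change was as weak as -1.39 and the adjusted p ran up to 0.212. Twsg1, twisted gastrulation, which binds BMPs and chordin and can act for or against signalling, was at 82.4, 71.0 and 56.0 CPM in Control and 76.7, 72.2 and 81.5 CPM in EAE. Its EAE values lay inside the Control range, and the 95% interval of its fold was 0.839 to 1.44 (log2 fold change 0.14 ± 0.17, adjusted p = 0.734).

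The other antagonists were sparse. Chrd (chordin), its relative Chrdl1, the activin-binding Fstl3 and the endothelial BMP modulator Bmper were tested with 113 to 234 reads in all 6 libraries, overlapping groups and adjusted p from 0.643 to 0.939. Prss57 lies antisense over 47.3% of the exonic bases of Fstl3. Nog, the gene of noggin, had 27 reads in all, 0, 12 and 0 in Control and 6, 8 and 1 in EAE, too few to test. Chrdl2 had 21 reads, Grem1 (gremlin) 1, and all 21 reads of Sostdc1 were in EAE replicate 3. Follistatin (Fst) and sclerostin (Sost) had none.

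All 3 membrane modulators were tested and none was called. Rgma, a repulsive guidance molecule that serves as a BMP co-receptor, was the member with most reads. It was at 102.7, 85.1 and 98.4 CPM in Control and 85.7, 95.8 and 110.3 CPM in EAE, with overlapping groups and a 95% interval of the fold of 0.801 to 1.30 (log2 fold change 0.03 ± 0.15, adjusted p = 0.949). Its relative Rgmb was at 6.99, 9.74 and 6.39 CPM in Control and 4.72, 6.33 and 7.05 CPM in EAE, again overlapping (log2 fold change -0.35 ± 0.32, adjusted p = 0.627). Bambi, a decoy receptor without a kinase domain, had 18 to 43 reads per library and overlapping groups (adjusted p = 0.743).

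Levels were compared between genes as RPKM, reads relative to gene length and library total, using the gene lengths deposited with the counts. By the deposited lengths the order of mean RPKM in Control was Rgma (24.7 ± 1.42, SD), Nbl1 (18.9 ± 2.53), Twsg1 (16.9 ± 3.04) and Bmp4 (15.9 ± 5.92), with Fstl1 next at 6.58 ± 3.99. The ranges of Nbl1, Twsg1 and Bmp4 overlapped in Control. In EAE the order was Bmp4 (34.2 ± 7.43), Rgma (26.2 ± 4.59) and Twsg1 (19.4 ± 2.57), followed by Gdf11 (5.82 ± 4.15), with Nbl1 at 3.04 ± 0.82. The ranges of Bmp4 and Rgma overlapped in EAE. The deposited length differed from the exonic bases of the annotation for 20 of the 39 members, with 3782 against 5544 for Rgma and 4046 against 5153 for Twsg1. Per exonic base the Control order turned to Nbl1 (18.9 ± 2.53), Rgma (16.9 ± 0.966), Bmp4 (15.7 ± 5.85) and Twsg1 (13.3 ± 2.39), while the first 4 in EAE kept their order, Bmp4 at 33.8 ± 7.35, Rgma at 17.9 ± 3.13, Twsg1 at 15.2 ± 2.02 and Gdf11. Order among the leading members in Control therefore rests on the length used. Bmp4 made up 11.4% to 18.1% of the summed member RPKM in Control and 23.8% to 40.1% in EAE, and Nbl1 15.4% to 20.4% and 1.77% to 3.78%.

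**Figure D3:**
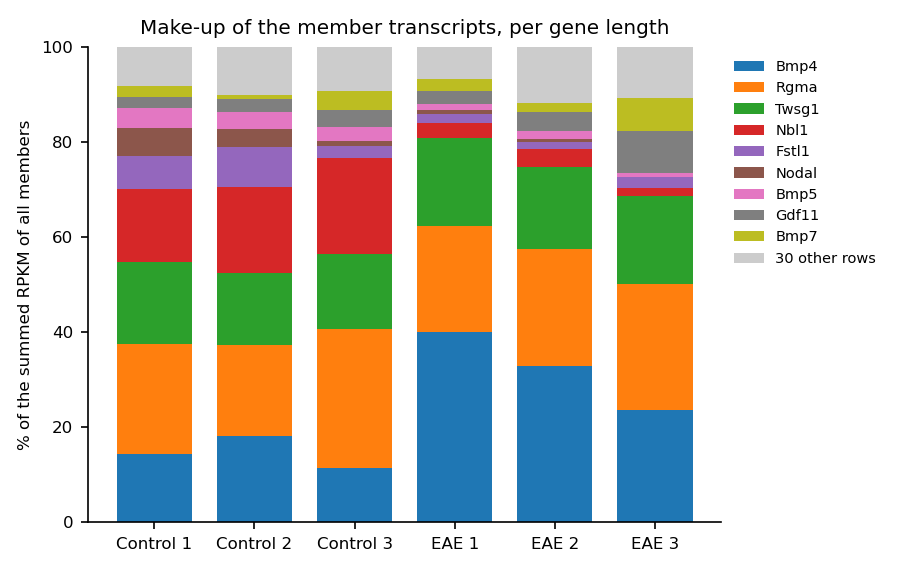
Share of the summed RPKM of all 39 matched members taken by 9 of them in each library, with the other 30 rows in grey. The Bmp4 band (bottom) is wider and the Nbl1 band narrower in all 3 EAE libraries, while the widths of the Rgma and Twsg1 bands overlap between groups.

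Summed over all ligands, RPKM was 37.8, 41.6 and 24.4 in Control and 54.4, 47.6 and 56.1 in EAE. Without Bmp4 the ligand sums were 14.5 to 21.6 in Control and 11.9 to 27.8 in EAE and overlapped. Secreted antagonists summed to 45.4, 51.1 and 34.1 RPKM in Control and 26.1, 22.7 and 28.3 in EAE, and without Nbl1 and Fstl1 to 14.3 to 20.5 and 17.7 to 23.5. With the membrane modulators added, the sums were 62.1 to 78.3 in Control and 48.9 to 62.8 in EAE and overlapped, whereas per exonic base they were 49.5 to 64.4 and 36.4 to 46.1 and did not. Ligand RPKM per RPKM of antagonists and membrane modulators was 0.393 to 0.531 in Control and 0.893 to 1.05 in EAE, or 0.479 to 0.628 and 1.14 to 1.38 per exonic base. These sums are descriptions with no test.

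The markers of vessel cells moved with the members that fell. All 12 pericyte and smooth muscle markers and all 12 endothelial markers were called lower in EAE, with median log2 fold changes of -2.82 and -2.44, beside -2.66 for Nbl1, -1.65 for Bmp5 and -3.45 for Bmp6. Of 9 fibroblast markers 5 were tested and 2 called lower, with a median of -1.79, Col1a1 had no read in Control and Dpt none in any library. In bulk samples, fewer cells of a type and less RNA per cell cannot be told apart. Per 1000 CPM of pericyte and smooth muscle markers in the same library, Nbl1 was at 5.74, 7.32 and 9.91 CPM in Control and 6.70, 10.2 and 6.83 CPM in EAE, and the groups overlapped. Per 1000 CPM of endothelial markers Nbl1 was at 12.5, 19.9 and 18.5 in Control and 11.1, 14 and 7.51 in EAE, again overlapping, whereas per 1000 CPM of precursor markers it was at 14.4, 14.9 and 9.93 against 1.72, 2.12 and 0.898. Bmp5 overlapped between groups per endothelial marker (5.19 to 7.80 and 6 to 12.3) and lay above Control per pericyte marker (2.79 to 3.19 and 5.12 to 8.98). Bmp6 overlapped per pericyte marker (0.166 to 0.444 and 0.0748 to 0.402) and per endothelial marker (0.363 to 1.21 and 0.124 to 0.442). Per 1000 CPM of fibroblast markers Nbl1 (721 to 1590 and 154 to 922) and Bmp5 (287 to 446 and 123 to 809) overlapped, and Bmp6 was lower in every EAE library (20.9 to 46.0 and 7.41 to 13).

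Bmp4 is itself listed among markers of newly formed oligodendrocytes. These summed, without Bmp4 itself, to 646 to 768 CPM in Control and 1376 to 1799 CPM in EAE, with 5 of the 6 others called higher. Precursor markers, given above, and neuronal markers, at 16.3 to 28.6 and 50.1 to 108 CPM, also summed higher in every EAE library. Neither list moved as a whole. Of 8 precursor markers, Gpr17 (called, 2.52-fold) and Ptprz1 (not called) lay above Control in every EAE library, and 5 overlapped. Cspg4, the gene of NG2 itself, lay below Control in every EAE library (347 to 375 against 160 to 290 CPM) and was not called. Of 4 tested neuronal markers, Tubb3 (6.31-fold) was called higher and the other 3 overlapped. Astrocyte markers overlapped (219 to 418 and 253 to 349 CPM), with 1 of 7, Gfap, called higher, and so was 1 of 7 tested microglia and macrophage markers, Lyz2. Per 1000 CPM of newly formed oligodendrocyte markers, without Bmp4 itself, Bmp4 was at 58.7, 61.2 and 30.6 in Control and 50.8, 55.0 and 35.9 in EAE, which overlapped. Per 1000 CPM of precursor markers it was at 14.8, 16.2 and 6.09 against 23.8, 20.2 and 13.2, also with an overlap. Rgma was at 26.6 to 40.1 in Control and 22.3 to 25.6 in EAE per 1000 CPM of precursor markers. These ratios did not overlap, although the CPM of Rgma itself did. The part of cell make-up in these member changes was not tested beyond these ratios.

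**Figure D4:**
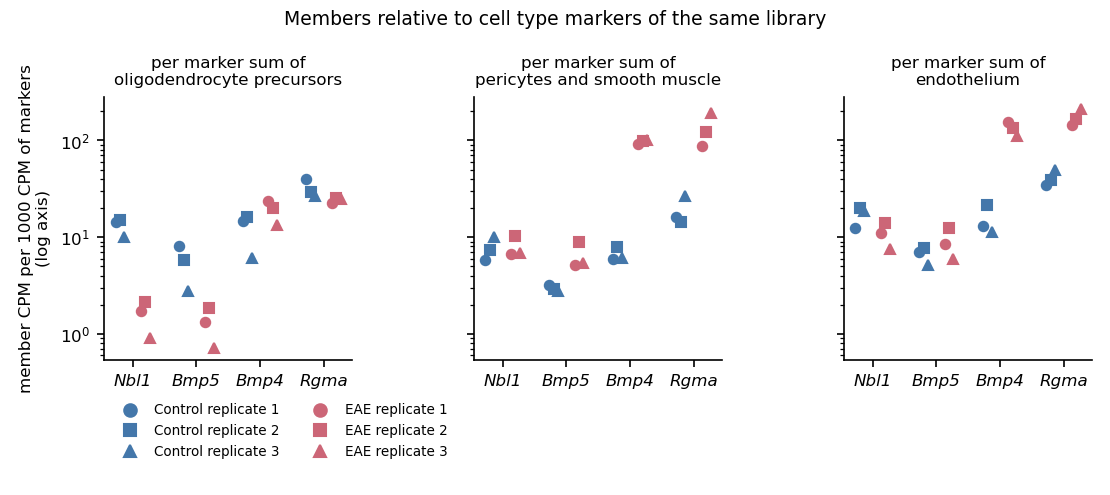
CPM of Nbl1, Bmp5, Bmp4 and Rgma per 1000 CPM of summed markers of precursors, pericytes and smooth muscle, or endothelium in the same library, on a log axis. Nbl1 separates by group per precursor marker and overlaps per vessel marker, and Bmp4 and Rgma lie higher in EAE per vessel marker. Rgma lies lower in EAE per precursor marker, where Bmp4 overlaps.

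Beyond the ligands and antagonists, 38 further genes of the pathway were listed, and 32 were tested, with 2 called higher and 6 lower, beside 2.82% and 4.33% of all tested genes. Among 10 tested receptors and co-receptors, those that fell were Acvrl1, the ALK1 receptor of endothelium for BMP9 and BMP10 (5.29-fold, from 26.4 to 35.1 CPM in Control to 4.84 to 6.65 in EAE, adjusted p = 0.00123), its partner endoglin (Eng, 6.15-fold, adjusted p = 0.00101) and betaglycan (Tgfbr3, 4.31-fold, adjusted p = 8e-04). All 3 kept their call without any 1 library. Their log2 fold changes of -2.40, -2.62 and -2.11 stood beside the median of -2.44 for the endothelial markers, and the part of endothelial cells in them was not tested. Gdf2 and Bmp10, which encode these ligands of Acvrl1, had no read. The BMP receptors Bmpr1a and Bmpr2 were at 60.1 to 71.2 and 179.7 to 232.5 CPM in Control and 63.0 to 79.6 and 149 to 204 CPM in EAE and were not called (adjusted p = 0.769 and 0.463). Bmpr1b, a further type I BMP receptor, had 4, 6 and 5 reads in Control and 28, 20 and 51 in EAE, and was not called (5.36-fold higher, adjusted p = 0.102). Its EAE libraries all lay above Control, as did those of 13.4% of all tested genes. Bmpr1b passed the filter on low counts only through the EAE libraries.

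None of the 8 Smads was called by edgeR, and 1 of them, the inhibitory Smad6, had an unadjusted p under 0.05. It was at 3.78, 2.58 and 1.90 CPM in Control and 0.405, 1.01 and 1.30 CPM in EAE, with no overlap (adjusted p = 0.194). Of 7 targets of Smad1 and Smad5 tested, 1 was called, lower. Id3 fell 4.21-fold (37.1, 16.9 and 20.9 CPM against 5.67, 3.35 and 8.74, adjusted p = 0.0208), a call that ended when replicate 1 of Control or of EAE was left out (adjusted p up to 0.0917). Id1 was at 17.1, 7.08 and 15.6 CPM in Control and 4.86, 4.77 and 0.964 in EAE, with no overlap, and did not pass (adjusted p = 0.102). Smad7, an inhibitory Smad that is also a target and the one with the highest CPM, had means of 113 CPM in Control and 112.5 CPM in EAE (log2 fold change -0.01 ± 0.16). Id2 had overlapping groups and a log2 fold change of 0.45 ± 0.47, Id4 -0.74 ± 0.81 and Atoh8 -2.61 ± 0.97, none of them called (adjusted p from 0.168 to 0.693). Atoh8 was at 1.03, 0.765 and 7.73 CPM in Control and 0.516, 0.298 and 0.731 CPM in EAE. Its groups did not overlap, but Control replicate 3 was far above all other libraries. Log2 fold changes were -2.07 for Id3, -1.91 for Id1 and -1.60 for Smad6, whereas those of Smad7 and Id2, given above, were smaller in size. The medians of the pericyte and smooth muscle markers and of the endothelial markers were -2.82 and -2.44. The part of cell make-up in the values of these targets was not tested.

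Of 9 other secreted modulators tested, 2 were called higher and 2 lower. Bmp1, a metalloprotease that cleaves chordin, rose 2.73-fold (17.5, 24.2 and 11.99 CPM against 37.1, 38.7 and 71.2, adjusted p = 0.0343) and kept its call only without EAE replicate 2 among the 6 fits that left out a library (adjusted p up to 0.134). Fstl4, a follistatin-like protein, was at 0, 0.483 and 0.555 CPM in Control and 8.14, 4.10 and 57.1 CPM in EAE (adjusted p = 0.0242). Its fitted fold of 66.6 was 17.7 without EAE replicate 3, and the call was lost without any 1 of the Control libraries (adjusted p up to 0.111), with no filter on low counts (0.173) and with limma-voom (0.339). The transmembrane BMP-binding protein Crim1 fell 2.35-fold and Kcp, a chordin-like protein, 4.03-fold (both adjusted p = 0.0210). Leaving out Control replicate 1, Control replicate 2 or EAE replicate 1 ended both calls, and leaving out EAE replicate 2 ended that of Kcp (adjusted p up to 0.0982 and 0.0790).

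**Figure D5:**
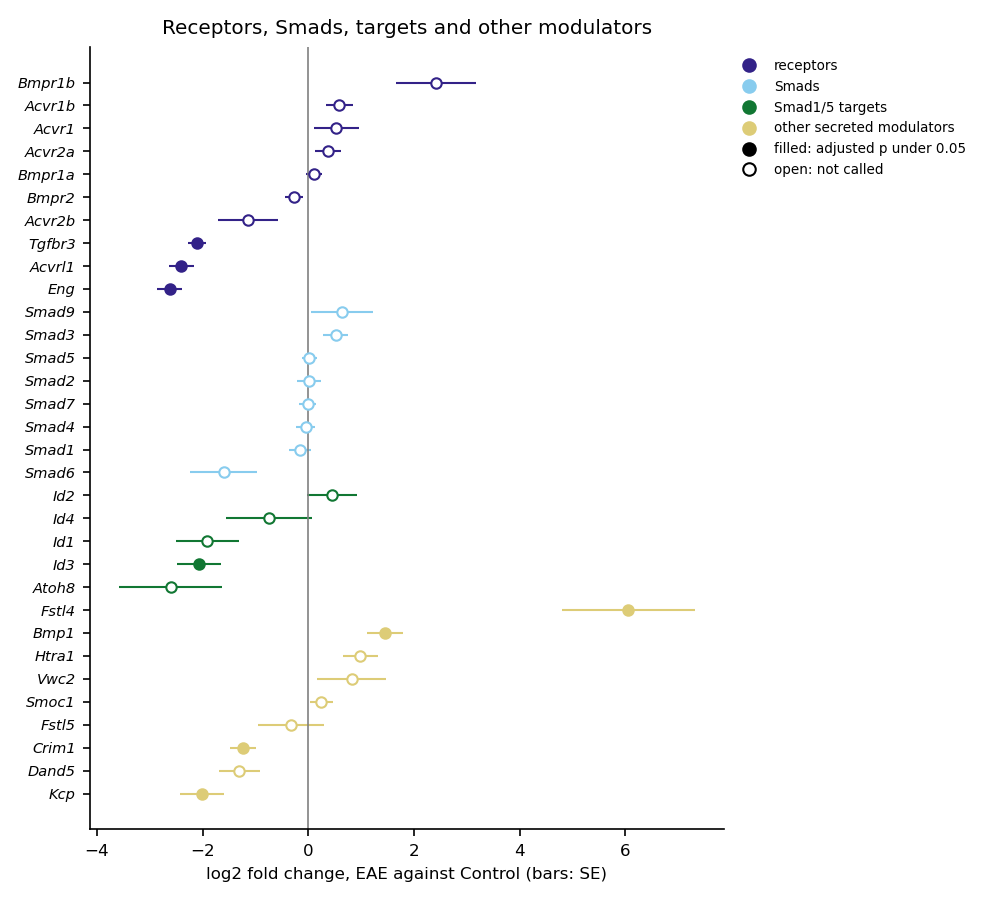
Log2 fold change with its SE for the 32 tested receptors, Smads, targets and other secreted modulators. Filled points, with an adjusted p under 0.05, are Eng, Acvrl1, Tgfbr3, Id3, Kcp and Crim1 on the lower side and Bmp1 and Fstl4 on the higher side.

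Gdf1 lies wholly inside the exons of Cers1, the gene of ceramide synthase 1 (100% of its exonic bases, same strand, chromosome 8), and any reads from it cannot be told apart from those of Cers1. That gene had 203, 318 and 231 reads in Control and 845, 635 and 1410 in EAE, a log2 fold change of 1.68 (adjusted p = 0.0123).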

How the data were processed

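The authors deposited raw read counts, 1 column per library, with a gene length in base pairs for each Ensembl identifier, and these counts are not normalized. The submitters' processing notes list STAR, featureCounts, FastQC and edgeR 3.24.3 and the mouse build mm10 without saying how each was used. Settings for strand and multi-mapped reads and the annotation release are unknown here. Symbols came from GENCODE M21 for GRCm38 by Ensembl identifier (94.9% matched), and promoters from RefSeq.

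Depth was 22141522 to 28734798 reads per library, which leaves genes with few reads imprecise. Genes passing filterByExpr (minimum count 10, minimum total 15) received TMM factors. The robust quasi-likelihood F test of edgeR 4.0.16 in R 4.3.3 compared EAE with Control, 2-sided, with Benjamini-Hochberg adjustment over 16966 genes, called under 0.05. Each SE was derived from the fold change and its F statistic. CPM and RPKM were computed here. With 3 libraries per group an exact test cannot give a p under 0.1. Alternatives were other scaling factors and filters, DESeq2 1.42.0, limma-voom (limma 3.58.1), a replicate block and each library left out. RPKM per exonic base of the annotation was added after seeing the data.

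All members are accounted for. Those called, or tested with a mean of at least 5 CPM, are given by library with fold or log2 fold change and adjusted p, and others by range or reads. Members and lists were chosen with earlier results of these data known. Of 167 list genes 2 had no row.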

Additional observations from a re-analysis of the deposited data

How the results depend on the processing

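Over all genes 1212 were called, against 2162 with DESeq2 and 440 to 1150 when 1 library was left out. Members called higher numbered 0 by edgeR, and 1 without the filter, with at least 1 CPM in 3 libraries, with DESeq2, with the replicate block and in a fit, chosen after seeing the data, with replicate 3 of both groups left out, and 0 to 1 when 1 library was left out. Members called lower numbered 3, against 5 with DESeq2, 5 in that added fit and 1 to 4 with 1 library left out. They numbered 2 with limma-voom, 2 without the filter and 2 with library sizes alone. Of the 38 further pathway genes 2 were called higher, against 1 without the filter, 1 with limma-voom, 1 with the replicate block, 3 with DESeq2, 4 in the added fit and 0 to 2 with 1 library left out. Of them 6 were called lower, against 9 with DESeq2 and 3 to 7 with 1 library left out. Same-numbered libraries did not deviate together (correlations 0.016, -0.04 and -0.034). With 3 libraries per group this cannot settle whether the numbers pair them, and the labels do not say. The replicate block called 818 genes over all and, among members, Bmp4 higher and Bmp5, Nodal and Nbl1 lower, with Bmp6 at an adjusted p of 0.115. Nbl1 was called under all 16 alternatives. Of 333 member values, 293 kept direction and side of the threshold, 14 lost and 13 gained a call, and 13, all uncalled, changed sign. With 1 library left out, log2 fold changes ran from -0.18 (without EAE replicate 3) to 1.03 for Bmp7, from -0.87 to 1.19 (without Control replicate 3) for Chrd, from -0.12 to 0.55 for Fstl3, which was below 0 without Control replicate 3, EAE replicate 1 or EAE replicate 2, and from -0.062 to 0.13 for Rgma, below 0 without Control replicate 2 or EAE replicate 3. Chrd was at 0.25 with limma-voom and 0.15 with the replicate block. In the added fit Inhbb was at -0.25, Chrdl1 at -0.38, Twsg1 at -0.056 and Rgma at -0.063. The cause was not tested. Depth limits the 9 tested members with 113 to 280 reads in all.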
